A study of Mus musculus with 8 samples.

Results

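The genes of the transforming growth factor β (TGFβ) ligands and of their receptors were examined in the dental pulp of mice that lack *Tgfbr2* in the dental mesenchyme. They were chosen by symbol as the ligand genes *Tgfb1*, *Tgfb2* and *Tgfb3*, the receptor genes *Tgfbr1*, *Tgfbr2* and *Acvrl1*, and the co-receptor genes *Tgfbr3* and *Eng*. All 8 are among the 12148 genes of the expression table, so none was lost to the authors' selection of reliably quantifiable genes.

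A TGFβ ligand is secreted as a latent dimer, held in the matrix or on a cell surface until it is released. The active ligand binds the type II receptor TGFBR2, which recruits and phosphorylates a type I receptor, TGFBR1 in most cells or ACVRL1 in endothelium, and the type I receptor then phosphorylates SMAD proteins that enter the nucleus. In the tooth, TGFβ signalling is known for its part in the differentiation of odontoblasts, the cells that make dentin.

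RNA from the pulp of first molars at postnatal day 7 was sequenced in 8 libraries, of which Osterix-Cre controls and *Tgfbr2cko* mice gave 4 each. A legend of the study states more RNA-Seq samples per genotype than these, and any others were not analysed here. All mice are of the strain C57BL/6J and all carry Cre recombinase driven by the Osterix promoter. The *Tgfbr2cko* mice, labelled Osterix-Cre:Tgfbr2f/f, carry in addition a *Tgfbr2* gene flanked by loxP sites. Between 8682872 and 13539670 reads per library fell on the listed genes, and libraries are called by a number of their titles (Osterix-Cre 49 to 52, *Tgfbr2cko* 53 to 56). The Osterix promoter is active in dental mesenchyme, so the vascular, immune and epithelial cells of the pulp are not its known target. The left and right molars were combined before extraction, and both sexes were used in equal numbers in the study's experiments. The labels do not say that the libraries come from separate animals, so a p-value measures only the spread between these libraries, which may be technical. The titles hold a further number (4, 4, 2 and 5 for the controls, 3, 2, 2 and 3 for the mutants), and its meaning is not given in the sources used here.

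The values are log2 CPM, the log2 of read counts scaled to a common library total, and a difference is always *Tgfbr2cko* minus Osterix-Cre. Differences were tested in limma, two-sided and with an intensity trend, called limma-trend here. A gene passed the test at a p under 0.05 after Benjamini-Hochberg adjustment over the 12148 genes. The study's own threshold, an unadjusted p under 0.05 with a change of at least 1.5-fold, was counted beside it. An exact permutation test, also two-sided, was run on each member; its 70 arrangements cannot give a p below 0.0286.

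Some features of the libraries bear on all of these genes. The markers of pulp were present, with 5 of 5 odontoblast and 8 of 8 pulp mesenchyme markers in the table. Of the odontoblast markers 4 had lower mutant means (median -0.71), and of the mesenchyme markers 3 (median 0.04). The summed CPM of the mesenchyme markers still lay lower in every mutant than in every control. *Col1a2*, at a difference of -1.22 the most negative of them, weighs most in that sum. Its mean log2 CPM was 14.47 among the controls, against 11.86 for *Lum*, the next most abundant. The sum thus mainly follows *Col1a2* and does not describe the list as a whole. Enamel matrix transcripts (*Amelx*, *Ambn*, *Enam*), which ameloblasts outside the pulp make, amounted to 19.2% of reads in the library labelled Tgfbr2cko 56 and to 0.334% to 2.87% in the other 7. Over all 10 markers of ameloblasts and dental epithelium, 6 had higher and 4 lower mutant means, and 1, *Klk4*, a protease gene of enamel maturation, passed the test in the lower direction (-2.71, limma-trend adjusted p = 0.000136). Of 10 endothelial markers, 10 had lower mutant means, with differences between -1.28 and -0.24, and 1, *Cldn5*, passed the test. Their summed level ran from 344.1 to 497.6 CPM among the controls against 280.8 to 377.6 CPM among the mutants. Of 7 macrophage markers 6 had lower mutant means and 0 passed the test (limma-trend; 3 at an unadjusted p under 0.05), at 673.2 to 987.3 against 431.7 to 902.2 summed CPM. Of 6 pericyte and smooth muscle markers that the table holds, 4 were lower, and 1, *Rgs5*, passed the test. *Cldn5*, *Rgs5*, *Col1a2* and *Klk4* are named here after their values were seen. Of 5 red blood cell markers, 2 had lower mutant means.

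The deleted gene, *Tgfbr2*, was read first, as a check of the labels. Its log2 CPM was 7.16, 7.62, 7.64 and 7.52 among the controls against 7.02, 7.00, 7.16 and 7.61 among the mutants. The genotypes overlapped, since the library labelled Tgfbr2cko 56 was as high as the controls and the lowest control, Osterix-Cre 49, was as low as Tgfbr2cko 55. The difference was -0.29 (SE 0.17, 95% interval -0.66 to 0.08), a level 0.82 times that of the controls, and it did not pass the test (limma-trend adjusted p = 0.79; exact permutation p = 0.143). Without the library labelled Tgfbr2cko 56 the difference was -0.42 (SE 0.15), with an adjusted p from limma-trend (unadjusted 0.0136) of 0.295. That was the largest of the 8 fits that left out 1 library. They ran from -0.42 to -0.22, with an unadjusted p under 0.05 from limma-trend in 2 of 8. The values count reads over the whole gene, and which exons the loxP sites flank is not given in the sources used here, so reads outside the deleted part and reads of cells without Cre activity are included. In such bulk samples fewer cells of a type and less RNA per cell cannot be told apart.

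Of the 8 ligand and receptor genes, 0 passed the test (limma-trend; 2 at an unadjusted p under 0.05), where 115 of all 12148 genes did, or 0.947%. At an unadjusted p under 0.05 there were 1018 genes, or 8.38% of the table. *Tgfb1*, the ligand made by many immune and vascular cells, met the study's threshold with a mutant level 0.609 times that of the controls. *Tgfbr1*, the type I receptor that carries most TGFβ signals, had a mutant level 1.44 times that of the controls, just under 1.5-fold. The study's threshold was thus met by 1 of the 8 genes, against 701 genes or 5.77% of the table. In *Tgfb1* and *Tgfbr1* the genotypes did not overlap, which was the case for 640 genes or 5.27% of the table. The median difference of the 8 genes was -0.16, with 6 lower and 2 higher mutant means, beside a median of -0.01 over all genes.

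The 250 bases before the start of *Tgfb1* and *Tgfbr1* are shown because these were the members whose genotypes did not overlap. The sequences are from RefSeq (GRCm38.p6), read 5′ to 3′ on the strand of the gene, and capitals mark GC boxes, the letters GGGCGG or, on the other strand, CCGCCC.
Tgfb1, chr7:25686752-25687001, plus strand: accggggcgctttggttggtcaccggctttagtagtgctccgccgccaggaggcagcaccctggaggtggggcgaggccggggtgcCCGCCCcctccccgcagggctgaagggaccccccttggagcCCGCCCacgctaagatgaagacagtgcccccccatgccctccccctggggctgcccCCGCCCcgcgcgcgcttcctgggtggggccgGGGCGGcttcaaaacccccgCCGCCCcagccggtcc
Tgfbr1, chr4:47352972-47353221, plus strand: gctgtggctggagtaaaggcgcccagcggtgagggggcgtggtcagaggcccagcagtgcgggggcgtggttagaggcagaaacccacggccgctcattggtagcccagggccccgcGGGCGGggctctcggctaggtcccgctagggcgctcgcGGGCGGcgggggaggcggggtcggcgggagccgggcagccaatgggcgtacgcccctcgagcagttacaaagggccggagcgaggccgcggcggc

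The *Tgfb1* window held 5 GC boxes and the *Tgfbr1* window shown held 2. RefSeq lists a second start of *Tgfbr1*, inside the gene, whose window (chr4:47385966-47386215) held 0 GC boxes and 1 CAGAC match and was 52.8% G or C. At least 1 was found in 32.7% of the 32851 windows of this length in the RefSeq table and at least 2 in 16.7%. Of the bases, 75.2% were G or C in the *Tgfb1* window and 74.8% in the *Tgfbr1* window shown, against a median of 52.4%. The letters CAGAC, a core of SMAD binding sites searched on both strands, were in neither of the windows shown and in 42.2% of all windows, and they differ from those of the GC box. The windows of *Tgfb2*, *Tgfbr2* and *Eng*, the other members matched in the table, held 0 GC boxes each. *Tgfb2* and *Eng* had 2 CAGAC matches each and *Tgfbr2* had 1. A match of letters is a description of the sequence and not a bound site.

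The levels of the genes relative to each other were read as CPM per kb of exon, which allows for the length of a transcript. *Tgfb3*, a ligand known for its part in the fusion of the palate, was the most abundant of the 8 genes at 232 ± 47.0 CPM per kb in the controls (SD, n = 4), above 98.7% of all genes of the table. *Tgfb2* followed at 48.7 ± 6.15, and the third ligand, *Tgfb1*, was low at 6.79 ± 1.07. Between them lay *Eng*, which encodes endoglin, a co-receptor of endothelium, at 28.9 ± 6.55 CPM per kb, and *Tgfbr2* at 22.0 ± 3.18. *Acvrl1*, the endothelial type I receptor, stood at 6.91 ± 1.55 CPM per kb, *Tgfbr1* at 5.95 ± 1.06 and *Tgfbr3*, which encodes the co-receptor betaglycan, at 2.23 ± 0.386. In this order the control ranges of *Eng* and *Tgfbr2* overlapped, as did those of *Acvrl1* and *Tgfb1* and those of *Tgfb1* and *Tgfbr1*. Within a library, *Eng* lay above *Tgfbr2* in 4 of 4 controls and 3 of 4 mutants, and *Acvrl1* above *Tgfb1* in 3 of 4 controls and 4 of 4 mutants. The ranges of *Tgfb3* and *Tgfb2*, *Tgfb2* and *Eng*, *Tgfbr2* and *Acvrl1*, and *Tgfbr1* and *Tgfbr3* were apart in the controls.

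In the mutants the order was the same for the 4 most abundant genes, at 207 ± 59.3 CPM per kb for *Tgfb3*, 56.9 ± 16.0 for *Tgfb2*, 22.0 ± 3.57 for *Eng* and 18.2 ± 3.83 for *Tgfbr2*. *Tgfbr1* was the fifth at 8.49 ± 0.726 CPM per kb, ahead of *Acvrl1* at 6.26 ± 0.932 and *Tgfb1* at 4.21 ± 1.10. *Tgfb1* lay above *Tgfbr1* in 2 of 4 controls and in 0 of 4 mutants. The place of *Tgfb1* rests on the length used: with its longest transcript of 2573 bases, in place of 5042 bases of exon over all transcripts, its control level was 13.3 ± 2.1 CPM per kb and it stood in the fifth place.

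**Figure D1:**
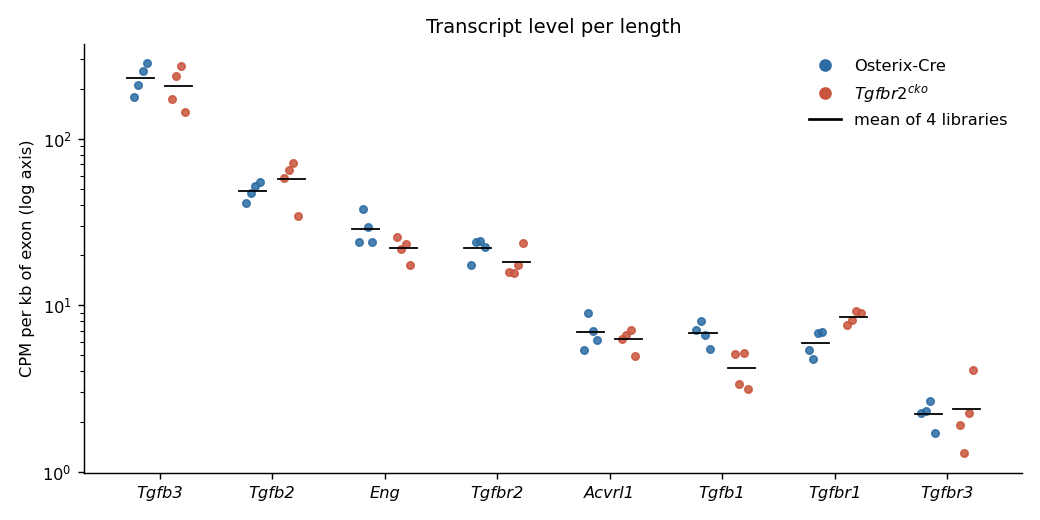
Level of each ligand and receptor gene in CPM per kb of exon on a log axis, with a point for each library, Osterix-Cre in blue and *Tgfbr2cko* in red, and a bar for the mean of the 4 libraries. *Tgfb3* lies highest in both genotypes, with control means from 232 CPM per kb down to 2.23 for *Tgfbr3*.

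Among the ligands, *Tgfb1* (ENSMUSG00000002603.15) lies on chromosome 7 from 25687002 to 25705077 (GRCm38 for all positions). Log2 CPM was 5.16, 5.34, 5.07 and 4.78 among the controls against 4.69, 4.09, 4.71 and 3.99 among the mutants, from 209 to 390 reads. Each mutant had less than each control, with the nearest pair, Osterix-Cre 52 and Tgfbr2cko 55, only slightly apart. The difference was -0.72 (SE 0.21, 95% interval -1.17 to -0.26), with p = 0.00466 unadjusted and 0.179 adjusted in limma-trend and 0.0286 in the exact permutation test. Leaving out each library in turn gave differences from -0.83 to -0.59, all 8 with an unadjusted p under 0.05 and adjusted p from 0.0993 to 0.469. *Tgfb1* was also set against the markers of cells known to make it, a comparison chosen after its values were seen. As a percentage of the summed macrophage markers it was 4.04 ± 0.455 among the controls against 3.10 ± 0.738 among the mutants (SD, n = 4), with overlap, and as a percentage of the summed endothelial markers 8.24 ± 1.68 and 6.60 ± 1.35, also with overlap. With the mean of the endothelial markers in the model the difference was -0.23 (SE 0.37), in a fit where that mean and the genotype cannot be told apart. The part of macrophages in the difference was not tested.

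*Tgfb2* (ENSMUSG00000039239.14) lies on chromosome 1 from 186622792 to 186705989. The libraries gave log2 CPM of 7.89, 8.08, 8.23 and 8.32 among the controls against 8.39, 8.55, 8.68 and 7.63 among the mutants. Mutant libraries 53 to 55 lay above every control and the library labelled Tgfbr2cko 56 lay below every control. The difference over all libraries was 0.18 (SE 0.21, 95% interval -0.28 to 0.64; limma-trend adjusted p = 0.974; exact permutation p = 0.486). Without the library labelled Tgfbr2cko 56 it was 0.41 (SE 0.15), with an adjusted p from limma-trend (unadjusted 0.0165) of 0.326. The other omissions kept it positive and moved it the other way in part, to 0.06 (SE 0.22) without Tgfbr2cko 55 and to 0.10 without Tgfbr2cko 54 or Osterix-Cre 49.

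*Tgfb3* (ENSMUSG00000021253.7) lies on chromosome 12 from 86056745 to 86079041, and 12.4% of its exon bases are shared with the genes *Gm37804* and *Gm48008* on the opposite strand. In log2 CPM it had 9.23, 9.48, 9.76 and 9.90 among the controls against 9.20, 9.65, 9.86 and 8.93 among the mutants, from 5206 to 9875 reads. The genotypes overlapped, with 2 mutant values below every control and 2 inside the control range. Its difference of -0.18 had a 95% interval from -0.67 to 0.31 (SE 0.23; limma-trend adjusted p = 0.98). The interval includes changes in either direction, and without the library labelled Tgfbr2cko 56 the difference was -0.02 (SE 0.21). It was also smaller in size without Osterix-Cre 52 (-0.08) or Tgfbr2cko 53 (-0.11), and larger without Tgfbr2cko 55 (-0.33) or Osterix-Cre 49 (-0.30).

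**Figure D2:**
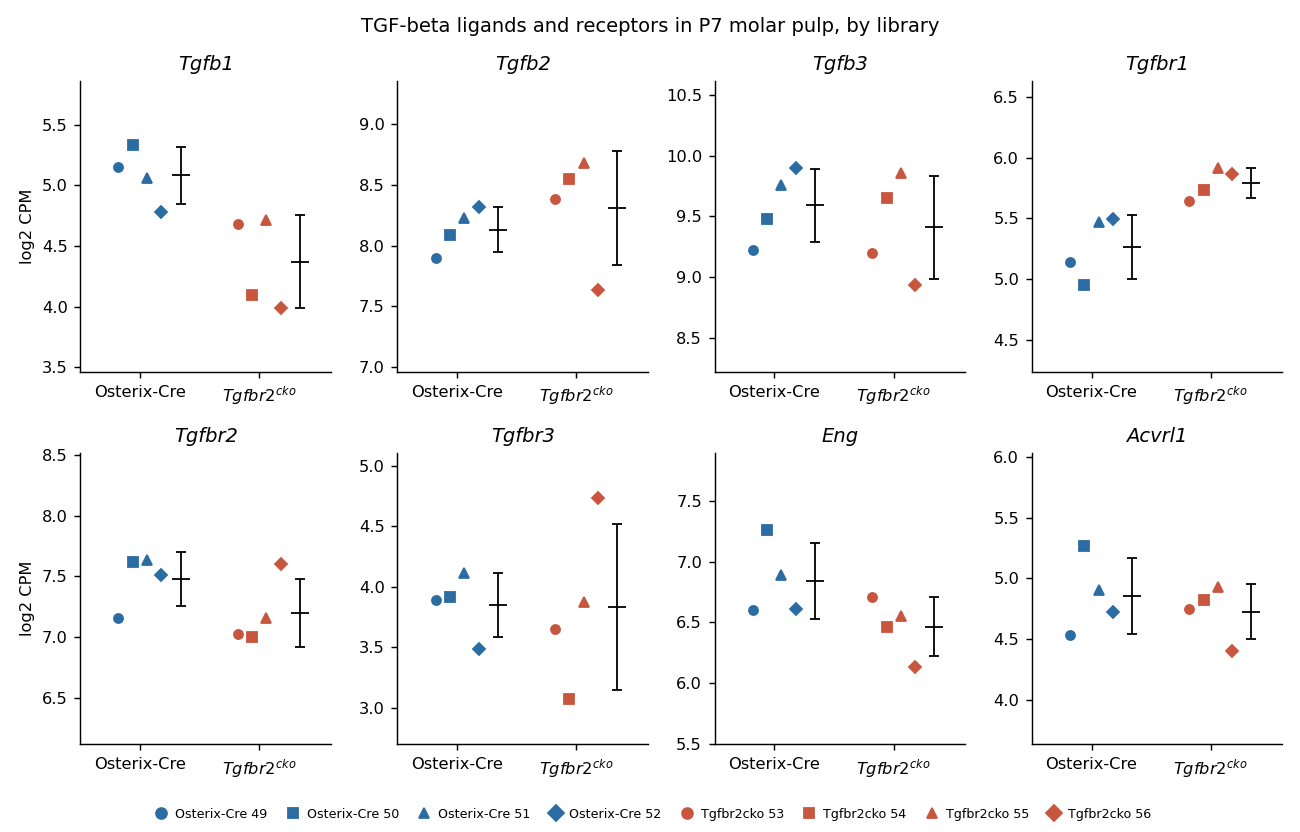
Log2 CPM of the 8 genes by library, a panel per gene with its own range on the vertical axis; the marks give the library, and the bar beside each group gives mean ± SD of 4 libraries. The genotypes do not overlap for *Tgfb1*, lower in *Tgfbr2cko*, and for *Tgfbr1*, higher in *Tgfbr2cko*, and the library labelled Tgfbr2cko 56 lies apart from the other mutants for *Tgfb2*, *Tgfbr2* and *Tgfbr3*.

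The ligands were also set against each other within a library. Of the summed CPM per kb of the 3 ligands, *Tgfb3* made up 80.4% ± 1.74 among the controls against 77.2% ± 2.65 among the mutants (SD, n = 4). *Tgfb2* made up 17.1% ± 1.00 and 21.2% ± 2.39, and its share was higher in every mutant, at 18.8% to 24.5%, than in every control, at 16.1% to 18.2%. For *Tgfb1* the shares were 2.46% ± 0.744 and 1.62% ± 0.442. These shares rest on the length used: by longest transcript, an alternative chosen after seeing the data, *Tgfb1* made up 4.60% ± 1.36 and 3.04% ± 0.812, and *Tgfb2* 18.5% ± 0.940 and 23.0% ± 2.46. The log2 ratio of *Tgfb2* to *Tgfb1* was 2.54, 2.55, 2.96 and 3.34 among the controls against 3.50, 4.26, 3.77 and 3.45 among the mutants. This ratio did not overlap between the genotypes, whereas that of *Tgfb3* to *Tgfb1*, with means of 5.08 ± 0.50 and 5.62 ± 0.44, did. *Tgfb1* by itself did not overlap either, so the ratio of *Tgfb2* to *Tgfb1* is not a separate result for *Tgfb2*, which overlapped. By longest transcript the mean ratio of *Tgfb2* to *Tgfb1* was 2.06 ± 0.39 among the controls against 2.95 ± 0.37 among the mutants; another length shifts a log2 ratio by the same amount in every library, so which ratios overlap did not change. The library labelled Tgfbr2cko 56, which was low in *Tgfb1* and in *Tgfb2*, lay above every control in the *Tgfb2* share and in the *Tgfb2* to *Tgfb1* ratio, but was the lowest mutant in both. The ratios and shares are descriptions with no test.

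Among the receptors, *Tgfbr1* (ENSMUSG00000007613.15) lies on chromosome 4 from 47353222 to 47414931. Measured as log2 CPM, it had 5.14, 4.95, 5.47 and 5.50 among the controls against 5.64, 5.74, 5.92 and 5.87 among the mutants, from 298 to 789 reads. Every mutant value lay above every control value, and the mutants lay closer together (SD 0.12) than the controls (SD 0.26). The difference was 0.53 (SE 0.16, 95% interval 0.18 to 0.88), with p = 0.00652 unadjusted and 0.217 adjusted in limma-trend and 0.0286 in the exact permutation test. Leaving out each library in turn gave differences from 0.42 to 0.61, all 8 with an unadjusted p under 0.05 and adjusted p from 0.167 to 0.547.

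The type II receptor gene *Tgfbr2* (ENSMUSG00000032440.13; chromosome 9, 116084293 to 116175360) has its values given above. The log2 ratio of *Tgfbr2* to *Tgfbr1* per kb was 1.69, 2.34, 1.85 and 1.69 among the controls against 1.05, 0.94, 0.92 and 1.42 among the mutants. The ratio was thus lower in each mutant than in each control, the library labelled Tgfbr2cko 56 included, although *Tgfbr2* alone overlapped. *Tgfbr1*, the other gene of the ratio, was by itself higher in every mutant than in every control. The separation of the ratio is thus not a result for *Tgfbr2* alone. As a mean, type II receptor transcripts were 3.72 times those of *Tgfbr1* among the controls against 2.12 times among the mutants.

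*Acvrl1* (ENSMUSG00000000530.16) lies on chromosome 15 from 101128522 to 101145336. Its log2 CPM was 4.53, 5.27, 4.91 and 4.72 among the controls against 4.75, 4.82, 4.93 and 4.40 among the mutants. The genotypes overlapped, and 3 of 4 mutants lay inside the control range. The difference was -0.13 (SE 0.19, 95% interval -0.55 to 0.29; limma-trend adjusted p = 0.995), an interval that leaves out a change of 1.5-fold. Leaving out 1 library moved it from -0.24 (without Osterix-Cre 49) to 0.0066 (without Osterix-Cre 50). The log2 ratio of *Acvrl1* to *Tgfbr1* per kb was 0.01, 0.93, 0.06 and -0.16 among the controls against -0.28, -0.30, -0.37 and -0.85 among the mutants. So *Acvrl1* was near or above *Tgfbr1* in the controls and below it in every mutant, with no overlap. *Tgfbr1* by itself did not overlap either, whereas *Acvrl1* by itself did.

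**Figure D3:**
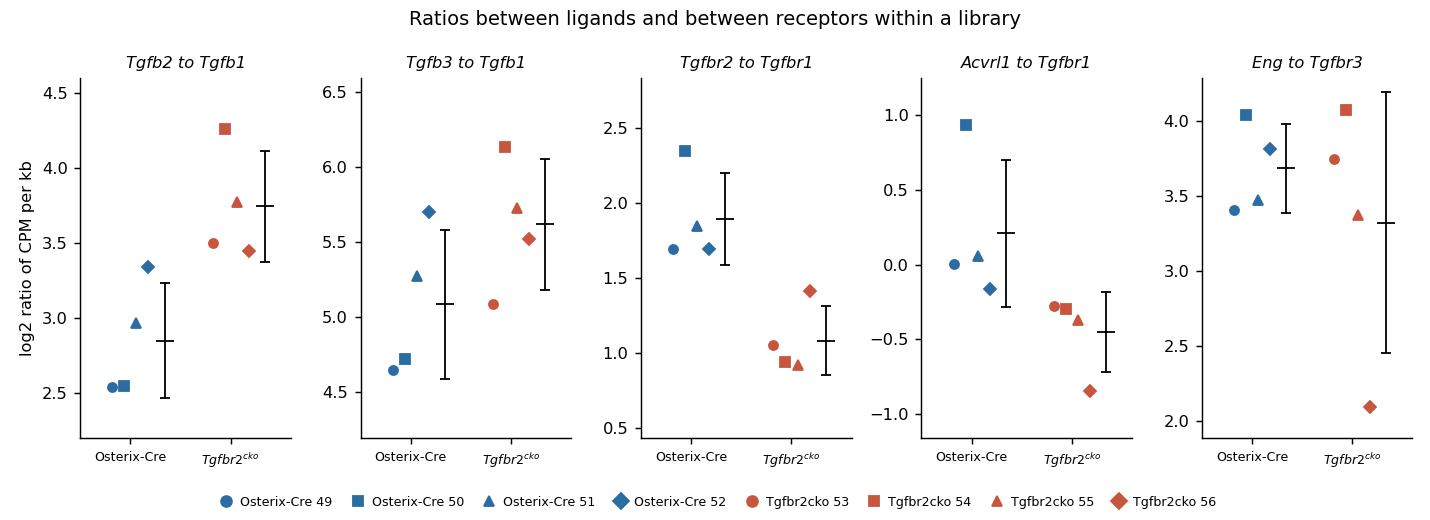
Log2 ratio of CPM per kb between pairs of ligand or receptor genes within each library, a panel per pair with its own range on the vertical axis; the marks give the library, and the bar beside each group gives mean ± SD of 4 libraries. The ratios of *Tgfb2* to *Tgfb1*, *Tgfbr2* to *Tgfbr1* and *Acvrl1* to *Tgfbr1* do not overlap between the genotypes, and those of *Tgfb3* to *Tgfb1* and *Eng* to *Tgfbr3* do. In each ratio without overlap, the second gene does not overlap by itself.

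Of the co-receptors, *Eng* (ENSMUSG00000026814.16) lies on chromosome 2 from 32646595 to 32682669. Log2 CPM was 6.61, 7.26, 6.89 and 6.61 among the controls against 6.71, 6.46, 6.56 and 6.13 among the mutants. Of the mutants 3 lay below every control, and Tgfbr2cko 53 lay inside the control range. The difference was -0.38 (SE 0.18, 95% interval -0.77 to 0.01), with p = 0.0561 unadjusted and 0.616 adjusted in limma-trend and 0.114 in the exact permutation test, and it was -0.27 (SE 0.17) without the library labelled Tgfbr2cko 56. Of all single omissions, that of Osterix-Cre 50, the control with the most *Eng*, brought it nearest to 0, at -0.24 (SE 0.18). *Eng* and *Acvrl1* are known from endothelium, whose 10 markers had lower mutant means as well. As a percentage of the summed endothelial markers, *Eng* was 27.6 ± 3.74 among the controls against 28.1 ± 5.22 among the mutants, and *Acvrl1* was 6.95 ± 0.755 and 8.41 ± 1.35 (SD, n = 4). Both percentages overlapped between the genotypes. With the mean of the endothelial markers in the model the differences were 0.0491 (SE 0.32) for *Eng* and 0.36 (SE 0.34) for *Acvrl1*. That mean and the genotype cannot be told apart, and the part of endothelium in the levels of *Eng* and *Acvrl1* was not tested.

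*Tgfbr3* (ENSMUSG00000029287.14) lies on chromosome 5 from 107106570 to 107289629. The libraries gave log2 CPM of 3.89, 3.91, 4.11 and 3.48 among the controls against 3.65, 3.08, 3.88 and 4.73 among the mutants, from 103 to 359 reads. The mutants spread over both sides of the controls, with Tgfbr2cko 54 below every control and the library labelled Tgfbr2cko 56 above every control. The difference was -0.02 (SE 0.30, 95% interval -0.67 to 0.63; limma-trend adjusted p = 0.998), and without the library labelled Tgfbr2cko 56 it was -0.32 (SE 0.24, adjusted p = 0.814). Without Tgfbr2cko 54 it was 0.24 (SE 0.28). A change of 1.5-fold in either direction lies inside the interval, so these libraries do not exclude it. The log2 ratio of *Eng* to *Tgfbr3* per kb, at 3.69 ± 0.30 and 3.32 ± 0.87 (SD, n = 4), overlapped between the genotypes.

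**Figure D4:**
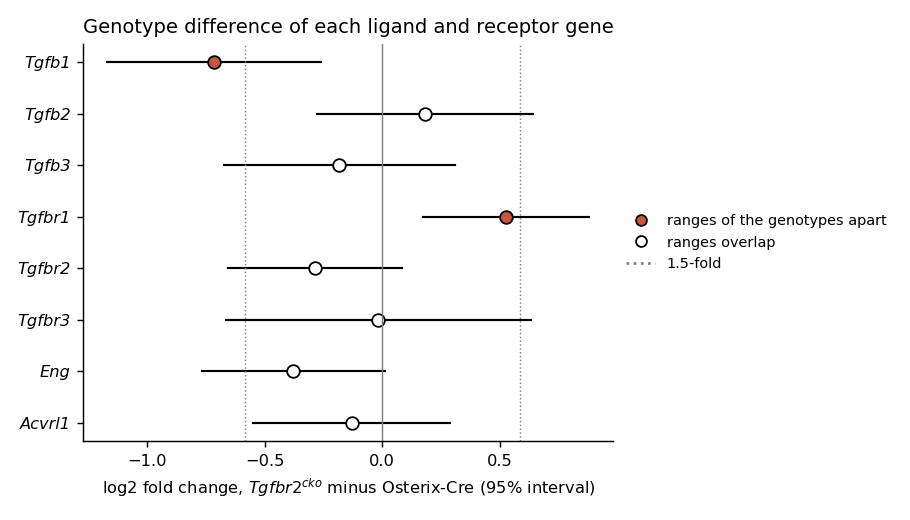
Log2 fold change of each ligand and receptor gene, *Tgfbr2cko* minus Osterix-Cre, as a point with its 95% interval from limma-trend; filled points mark the genes whose genotypes do not overlap and dotted lines mark a change of 1.5-fold. The intervals of *Tgfb1* (-1.17 to -0.26) and *Tgfbr1* (0.18 to 0.88) leave out 0, and the other 6 include it.

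For *Tgfbr2*, *Eng* and *Acvrl1* the genes with the most similar log2 values over the 8 libraries were sought among 10312 genes with a mean log2 CPM of at least 3. Nearest to *Tgfbr2* were *Rnd3* (Pearson's r = 0.925), *Hs3st3b1*, a heparan sulfate sulfotransferase gene (r = 0.924), and *Prkch*, a protein kinase C gene (r = 0.905). Nearest to *Eng* were *Arhgef40* (r = 0.970), *Xpo6* (r = 0.968) and *Sh2d3c* (r = 0.962), and nearest to *Acvrl1* were *Flii* (r = 0.966), *Pygo2* and *Zfp740* (r = 0.957 each). These correlations describe 8 libraries that share the 2 genotypes and differ in depth and in enamel matrix reads, and they carry no test.

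The other genes of the pathway were read from 5 lists, of which 53 of 60 genes are in the table. Of the 53, 2 passed the test, against 0.947% of all genes, both lower in the mutants, and both belong to the genes for latency, binding and activation of the ligand. The study's threshold was met by 1 higher and 3 lower, or 7.55% against 5.77% of all genes. The median difference over the 53 was 0.00, beside -0.01 over all genes.

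*Lrrc32* encodes GARP, which tethers latent TGFβ on the cell surface, and lies on chromosome 7 from 98489283 to 98502181. In log2 CPM it had 3.81, 3.90, 4.09 and 3.57 among the controls against 0.49, 1.95, 2.07 and 2.09 among the mutants, from 12 to 162 reads. Every mutant lay far below the lowest control, and Tgfbr2cko 53 lay lowest. *Lrrc32* fell by 2.19 on the log2 scale (SE 0.34, limma-trend adjusted p = 0.00721), and it kept an adjusted p under 0.05 in 8 of 8 fits that left out 1 library, from 0.00157 to 0.0336. GARP is known from endothelium as well as from regulatory T cells and platelets. As a percentage of the summed endothelial markers, a comparison chosen after the values were seen, *Lrrc32* was 2.71 to 4.18 among the controls against 0.454 to 1.38 among the mutants, with no overlap. The single endothelial markers had differences between -1.28 and -0.24. The part of endothelium in the difference of *Lrrc32* was not tested.

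*Nrros* encodes LRRC33, the corresponding tether of macrophages and microglia, and lies on chromosome 16 from 32142785 to 32165594. Measured as log2 CPM, it had 5.67, 5.71, 5.71 and 5.58 among the controls against 5.17, 4.81, 4.61 and 4.11 among the mutants. The controls lay close together (SD 0.06) and all mutants lay below them. *Nrros* fell by 0.99 on the log2 scale (SE 0.20, limma-trend adjusted p = 0.0354). The call was lost without the intensity trend (adjusted p = 0.0713) and in 6 of 8 fits that left out 1 library, where the adjusted p ran from 0.00766 to 0.122. Of the 7 macrophage markers 6 had lower mutant means. As a percentage of their sum *Nrros* was 5.30 to 7.10 among the controls against 3.47 to 4.01 among the mutants, with no overlap. This comparison and the markers named next were chosen after the values were seen. The most abundant markers, *C1qb* and *Csf1r*, had differences of -0.43 and -0.27. *Ptprc* was at -0.96, *Cd68* at -0.70 and *Cx3cr1*, the higher one, at 0.26. The part of macrophages in the difference of *Nrros* was not tested. Both calls were lost when the mean of the endothelial markers was added to the model (adjusted p = 1 for each, where 0 genes of the table passed), with differences of -2.11 for *Lrrc32* and -1.03 for *Nrros*. That mean lay lower in every mutant than in every control, so it and the genotype cannot be told apart.

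The same list of 20 genes in the table held 10 lower and 10 higher mutant means. *Itgav*, an integrin subunit that binds the latent complex, had a difference of 0.35 (SE 0.14, adjusted p = 0.451 from limma-trend), and *Dcn*, the gene of the TGFβ-binding proteoglycan decorin, one of 0.52 (SE 0.23, adjusted p = 0.57). *Emilin1*, whose product limits the processing of the TGFβ1 precursor, had a difference of -0.48 (SE 0.19, adjusted p = 0.438), which without the library labelled Tgfbr2cko 56 was -0.32. None of these 3 passed the test, and *Itgav* alone among them did not overlap between the genotypes. With *Lrrc32* and *Nrros*, 3 of the 20 genes did not overlap, against 5.27% of all genes.

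Of 9 feedback and SMAD inhibitor genes 0 passed the test (limma-trend; 3 at an unadjusted p under 0.05, against 8.38% of all genes). *Bambi*, a pseudoreceptor that dampens the signal, was 9.30, 9.25, 9.66 and 9.39 among the controls against 9.80, 10.35, 9.95 and 10.05 among the mutants, a difference of 0.64 (SE 0.18, adjusted p = 0.145). *Skil*, the gene of the SMAD co-repressor SnoN, was 5.88, 5.62, 5.79 and 6.11 among the controls against 4.74, 4.60, 5.62 and 5.57 among the mutants, a difference of -0.71 (SE 0.23, adjusted p = 0.253). Neither gene overlapped between the genotypes, although for *Skil* the nearest pair was almost level, and *Tgif1*, a further co-repressor gene, did not overlap either (-0.44, SE 0.15, adjusted p = 0.262). These were 3 of the 9 genes, where 5.27% of all genes did not overlap.

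**Figure D5:**
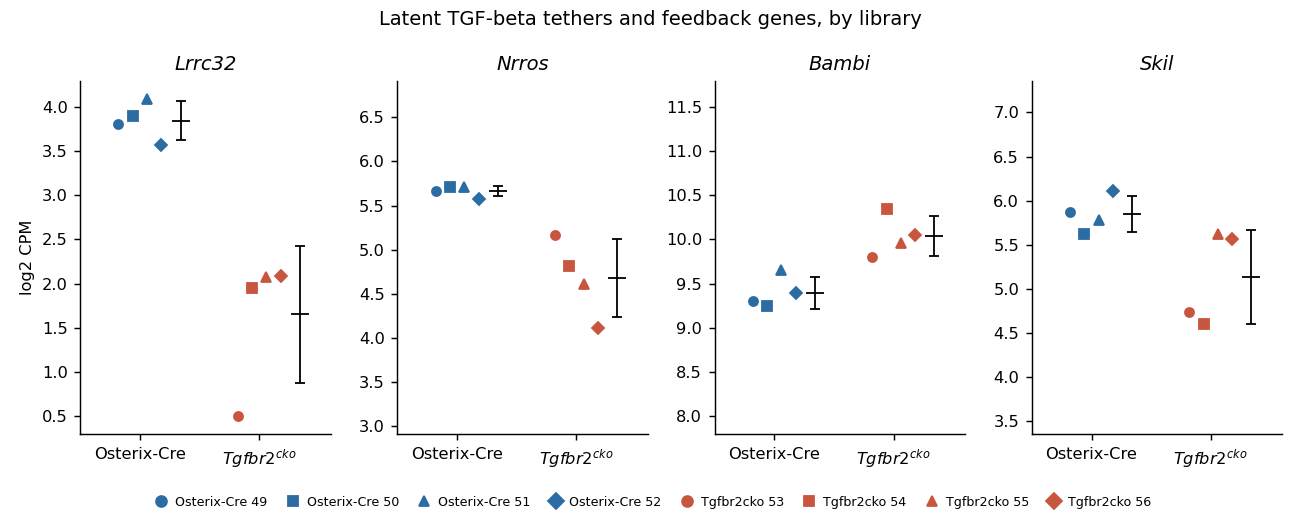
Log2 CPM by library of the latent TGFβ tether genes *Lrrc32* and *Nrros* and of the feedback genes *Bambi* and *Skil*, each panel with its own range on the vertical axis; the marks give the library, and the bar beside each group gives mean ± SD of 4 libraries. *Lrrc32* and *Nrros* passed the limma-trend test after adjustment (0.00721 and 0.0354), and *Bambi* and *Skil* did not (0.145 and 0.253).

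Of the SMAD genes *Smad2*, *Smad3* and *Smad4*, 0 of 3 passed the test (limma-trend; 0 at an unadjusted p under 0.05), with a median difference of 0.27. Of 15 listed TGFβ target genes 0 passed the test (limma-trend; 1 at an unadjusted p under 0.05), with 10 lower and 5 higher mutant means and a median of -0.19. The gene with an unadjusted p under 0.05 was *Timp3*, a metalloproteinase inhibitor, at -0.41 (SE 0.17, adjusted p = 0.494), and 21.3% of its exon bases are shared with *Syn3* on the opposite strand. Of the 6 other listed receptor genes of the family 0 passed the test (limma-trend; 1 at an unadjusted p under 0.05), with 5 higher and 1 lower mutant means and a median of 0.19. The genotypes did not overlap in 1 of these 6, *Bmpr2* (0.19, SE 0.13), and in 0 of the SMAD and target genes, against 5.27% of all genes. *Acvr1b*, the activin type I receptor, had a difference of 0.58 (SE 0.26, adjusted p = 0.582), which without the library labelled Tgfbr2cko 56 was 0.38.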

How the data were processed

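Per the labels and the study's methods, pulp RNA was amplified from a low input with a SMART-seq kit, made into Nextera XT libraries and sequenced on a NovaSeq. The submitters' processing notes list fastp 0.21.0, HISAT2 2.1.0, featureCounts, Subread 2.0.1 and limma, with GRCm38.p5 (the methods print GRCh38) and, in the methods, GENCODE M14. The strand setting of the counting is not given in the sources used here. The authors kept genes that the CLEAR workflow calls quantifiable and deposited voom log2 values, that is log2 of the count plus 0.5 scaled to CPM. By that formula all 97184 values gave whole reads within 3.61e-08. At 0.0739 to 0.115 CPM per read, 3 reads are 0.222 to 0.346 CPM, which covers counting error only.

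Of 12148 identifiers, 12144 were matched to a symbol and an exon length in GENCODE M21 (GRCm38). The log2 values of the 8 libraries were fitted in R 4.3.3 with limma 3.58.1 (moderated test, intensity trend, no covariate, Benjamini-Hochberg), which was tested on simulated data. Tables and figures came from Python 3.11.15 and matplotlib 3.10.9. The genes named are every member, every list gene with an adjusted p under 0.05, the 2 other genes of each list with the smallest unadjusted p under 0.05 in each direction, and the 3 genes most correlated with *Tgfbr2*, *Eng* and *Acvrl1*. The members and lists were chosen with earlier results of these data known. The result of 1 marker list is not reported here.

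Alternatives were a fit without the trend, library weights, voom weights on the recovered reads, quantile normalization, median centring, a minimum mean log2 value of 3, averaging of libraries with one title number, each library left out, enamel or endothelial genes in the model, other call thresholds and the longest transcript as length.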

Additional observations from a re-analysis of the deposited data

Results flagged for a closer look

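In 62 groups of 4 libraries, the gap between the highest or lowest library and its neighbour was compared with the range of the group by Dixon's 95% critical value. Chance alone gives such a gap in about 1 in 20 groups, and 4 were found, all in *Tgfbr2cko*. The log2 ratio of *Acvrl1* to *Tgfbr1* in the library labelled Tgfbr2cko 56 was -0.85, below -0.37, -0.30 and -0.28 in the other mutants. The log2 CPM of *Lrrc32* in Tgfbr2cko 53 was 0.49, below 1.95, 2.07 and 2.09. The log2 CPM of *Acvr1b* in the library labelled Tgfbr2cko 56 was 4.45, above 3.62, 3.64 and 3.74. The summed red blood cell markers of that library came to 2541 CPM (11.31 on the log2 scale), above 565.6, 675.8 and 693.9 CPM.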

How the results depend on the processing

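Over 17 alternatives for each of the 8 members, 125 of 136 fits kept the direction and the side of the threshold, 11 turned the direction, and 0 gave an adjusted p under 0.05. The adjusted p ran from 0.0993 to 1 for *Tgfb1* and from 0.137 to 1 for *Tgfbr1*, each with an unadjusted p under 0.05 in 16 of 17; the exception was the fit with the endothelial markers, which gave -0.23 for *Tgfb1*, 0.48 for *Tgfbr1* and -0.05 for *Tgfbr2*. That fit turned *Tgfb3* to 0.13, *Tgfbr3* to 0.24, *Eng* to 0.0491 and *Acvrl1* to 0.36. *Tgfbr3* was also turned by voom weights, to 0.0073, and by averaging libraries with one title number, to 0.0001. With 1 library left out, *Tgfbr3* ran from -0.32 to 0.24 and *Acvrl1* from -0.24 to 0.0066, the latter without Osterix-Cre 50. Library weights moved *Tgfbr2* to -0.42 (limma adjusted p = 0.198, unadjusted 0.0099), *Tgfb2* to 0.34 (limma adjusted p = 0.453, unadjusted 0.0501), *Tgfb3* to -0.04, *Tgfbr3* to -0.28 and *Acvrl1* to -0.08. With the enamel genes in the model *Tgfb2* was 0.36, *Tgfb3* -0.06, *Tgfbr3* -0.31, *Acvrl1* -0.0045, *Eng* -0.25 and *Tgfbr2* -0.36. The endothelial markers moved *Tgfb2* to 0.45, and quantile normalization moved *Tgfbr3* to -0.03.

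Genes of the whole table with an adjusted p under 0.05 numbered 258 with library weights, 0 with the endothelial markers, and 65 to 165 with 1 library left out, 70 without Osterix-Cre 52, 72 without Tgfbr2cko 55 and the lowest without Osterix-Cre 51. At the study's threshold the endothelial markers gave 347 genes, a 2-fold limit 256 and the adjusted p 115. Members at that threshold numbered 0 with the endothelial markers and 1 to 2 with 1 library left out, with *Tgfbr1* the second without Osterix-Cre 51 or 52. The 4 pathway genes at that threshold became 7 with voom weights, 7 with the enamel genes, 2 with the endothelial markers and 2 to 7 with 1 library left out (2 without Tgfbr2cko 54, 7 without the library labelled Tgfbr2cko 56). The 2 pathway genes that passed the test became 1 without the trend, 0 with the endothelial markers and 1 to 2 with 1 library left out. Among genes with a mean of at least 3 there was 1, because that filter leaves *Lrrc32* out. *Skil* passed the test with the enamel genes in the model (-0.95, adjusted p = 0.0275). With the endothelial markers *Skil* was -0.32, *Bambi* 0.36, *Acvr1b* 0.08 and *Emilin1* -0.29, each nearer to 0 than in the main fit. In that fit *Tgif1*, at -0.55, and *Itgav*, at 0.55, were further from 0. By longest transcript, control levels were 55.1 CPM per kb for *Tgfb2* and 13.3 for *Tgfb1*. The causes were not tested.

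Quantile normalization and median centring moved the median of all genes to 0.01 and -0.01. The genotypes share only the title number 2, in 1 control and 2 mutants, so a fit blocked on that number would rest on those 3 libraries, and it was not run. With 4 libraries of each genotype and a median SE of 0.20 over the members, the 95% intervals of 7 of the 8 members include a 1.5-fold change in at least 1 direction, and that of *Acvrl1* does not.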

Other observations

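The 2 abundant ligand genes ordered the libraries alike within each genotype. In the controls both *Tgfb2* and *Tgfb3* were lowest in Osterix-Cre 49, then in 50, 51 and 52, and in the mutants both were lowest in the library labelled Tgfbr2cko 56, then in 53, 54 and 55. *Eng* and *Acvrl1* also ordered the controls alike, lowest in Osterix-Cre 49 and then in 52, 51 and 50, but not the mutants, where *Eng* was highest in Tgfbr2cko 53 (6.71) and *Acvrl1* in Tgfbr2cko 55 (4.93). The spread between mutant libraries was larger than between controls for *Tgfb2* (SD 0.47 against 0.19) and *Tgfbr3* (SD 0.69 against 0.26) and smaller for *Tgfbr1* (SD 0.12 against 0.26). These orders and spreads were noticed after the values were seen and were not tested.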
